A study of Mus musculus with 5 samples.

Results

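The enzymes that protect a cell from oxygen radicals and peroxides were followed in MIN6 cells given vesicles from muscle. The set holds 36 genes of the 31754 named on the array: the transcription factor NRF2 and its repressor, enzymes of glutathione synthesis and reduction, glutathione peroxidases and catalase, superoxide dismutases, peroxiredoxins, the thioredoxin system, the pentose phosphate pathway and glutathione transferases. They were chosen by name for their roles, and the rule that picks them uses no measured value. Earlier results of these data were known when the choice was made. All 36 had a probe, 47 probes in all, and the probe with the highest mean signal stands for a gene.

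MIN6 cells come from an insulin-producing tumour of the mouse pancreas and stand in for beta cells as 1 established line. Every sample had been exposed to exosomes, small vesicles released by cells, which were collected from mouse muscle cultured outside the body. The muscle donors ate a standard diet in the control group (EXO-STD, n = 2) and a high fat diet in the other (EXO-HP, n = 3). No group without vesicles was analysed here, and the labels state no mouse strain or age, vesicle dose or exposure time. Sample titles call the samples biological replicates but do not say whether cultures, vesicle preparations or muscle donors were separate, so p-values measure only the spread between these samples, part of which may be technical.

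Superoxide dismutases turn superoxide into hydrogen peroxide, which catalase, glutathione peroxidases and peroxiredoxins then remove. Glutathione peroxidases draw on glutathione and peroxiredoxins on thioredoxin, and both carriers are returned to their reduced form with NADPH, much of it from the pentose phosphate pathway. NRF2 binds the antioxidant response element in the promoters of many of these genes when its repressor KEAP1 releases it. Pancreatic beta cells are known for low catalase and glutathione peroxidase in comparison with liver and for their reliance on peroxiredoxins and thioredoxin.

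No antioxidant gene passed the test between EXO-HP and EXO-STD cells. Of the 36 genes, 33 were well above background on all 5 arrays and were tested, and their log2 differences (EXO-HP minus EXO-STD) ran from -0.25 for Txn1 to 0.26 for Taldo1. None of the 33 was called by limma at an adjusted p of 0.05 (adjusted p = 0.9999 for each, over 31943 probes), against 0.0% of all probes. None had an unadjusted p under 0.05, against 5.84% of the 25844 genes tested, and the smallest unadjusted p from limma was 0.35, for Nfe2l2. In none of the 33 did the EXO-HP arrays all lie above or all lie below both EXO-STD arrays, whereas the groups did not overlap in 17.9% of all genes (15.0% with EXO-HP higher and 2.82% with EXO-HP lower). The difference was above 0 in 14 antioxidant genes and below 0 in 19, with a median of -0.004, whereas 62.3% of all genes lay above 0 and 37.7% below, with a median of 0.07. With arrays scaled to their medians the split of the 33 genes was 2 above and 31 below 0 (the median of all probes then lay at -0.102 in place of 0.075), with quantile normalisation it was 15 and 18, and with the slide as a block 6 and 27. The median size of the difference, without its sign, was 0.09 in the antioxidant genes and 0.17 in all genes. These comparisons were not matched for signal: all 33 were well above background on all 5 arrays, against 21740 of the 25844 genes tested. With probes limited to such signals, 1079 of 26951 had an unadjusted p under 0.05 in limma, against 1788 of 31943 without that limit.

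For 24 of the 33 genes the 95% interval of the difference stayed within 2-fold in either direction. For the other 9 (Gpx1, Gpx2, Gpx4, Prdx1, Prdx2, Prdx4, Prdx5, Txn1 and Taldo1) it reached past 2-fold. With the slide as a block, which leaves EXO-HP replicate 1 as the only EXO-HP array compared, 9 of the 33 intervals stayed within 2-fold. In the fit without that block the farthest end of the interval ran from 1.44-fold for Gclc to 2.27-fold for Prdx1. The median over the 33 genes was 0.19 when EXO-STD replicate 1 was left out and -0.25 when EXO-STD replicate 2 was, so the direction of the set turned on which control array was kept. Without EXO-HP replicate 1 the median was 0.06, without EXO-HP replicate 2 it was -0.17, and without EXO-HP replicate 3 it was 0.09.

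**Figure D1:**
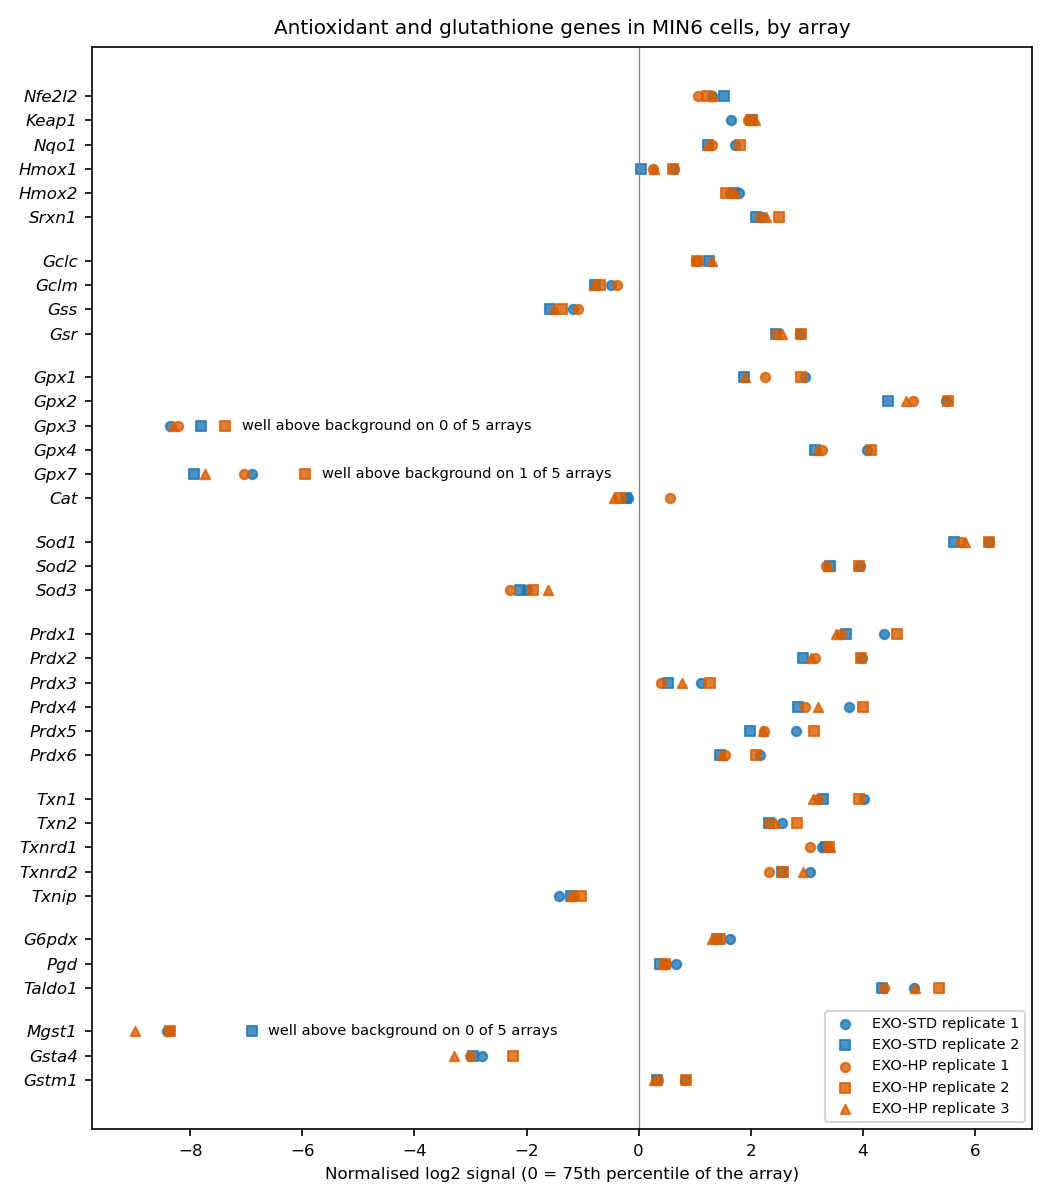
Normalised log2 signal (x axis, 0 is the 75th percentile of each array) of the 36 antioxidant genes (y axis, grouped by role), with 1 point per array for EXO-STD (n = 2) and EXO-HP (n = 3). Signals of different genes come from different probes and are not comparable with each other. In 33 genes the points of both groups overlap, and Gpx3, Gpx7 and Mgst1, well above background on 0, 1 and 0 of 5 arrays, were not tested.

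Facts of the whole series set the frame. Slide 1, read in scan 1, carried both EXO-STD arrays and EXO-HP replicate 1. Slide 2, read in scan 2, carried EXO-HP replicates 2 and 3. Between 71.8% and 74.0% of spots were well above background on slide 1, and 81.6% and 91.6% on slide 2. All 14 markers of beta cells were well above background on all 5 arrays, against 68.5% of all genes. So were 6 of 7 markers of macrophages and leukocytes, 4 of 5 of other islet cells, 3 of 5 of adipocytes, 6 of 12 of skeletal muscle, 2 of 4 of endothelium, 2 of 6 of fibroblasts, 2 of 6 of red cells and 2 of 7 of exocrine and duct cells. The median of a list on an array lay between 4.84 and 5.29 for beta cells and between -6.93 and -2.56 for the other lists. A reading well above background does not show that cells of that type were present. In bulk RNA, fewer cells of a type and less RNA per cell cannot be told apart. The smallest 2-sided exact p that 2 arrays against 3 allow is 0.2. Precision is limited by the number of arrays.

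The core of the antioxidant response element, TGACNNNGC, was searched on both strands of RefSeq promoters (assembly GRCm38.p6, 250 bases before to 50 bases after a gene's start), and no other motif was searched. Promoters were matched for 30 antioxidant genes, and 9 of them (30%) held the letters, against 3781 of 27025 genes (14.0%) over all promoters. A match is a description of letters and not of binding. The following 6 windows are shown because these genes stand for the regulator, glutathione synthesis, peroxide removal, thioredoxin reduction and NADPH supply. Each reads 5′ to 3′ on the strand of its gene, with the match in capitals.
Nfe2l2: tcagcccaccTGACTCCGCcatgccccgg
Gclm: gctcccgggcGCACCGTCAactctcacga
Prdx1: cagggaaagcGCTGAGTCAtcccccgtag
Srxn1: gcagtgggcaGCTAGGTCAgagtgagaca
Txnrd1: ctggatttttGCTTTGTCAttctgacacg
G6pdx: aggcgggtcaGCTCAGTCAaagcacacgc

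The windows lie at chr2:75704885-75704913 on the minus strand for Nfe2l2, chr3:122245413-122245441 on the plus strand for Gclm, chr4:116685456-116685484 on the plus strand for Prdx1, chr2:152105542-152105570 on the plus strand for Srxn1, chr10:82859104-82859132 on the plus strand for Txnrd1 and chrX:74428919-74428947 on the minus strand for G6pdx. The match begins before the start of the gene in 5 of them, at -240, -134, -133, -92 and -57 for Nfe2l2, Gclm, Prdx1, Txnrd1 and G6pdx, and at 29 in Srxn1. The other 3 promoters with the letters were those of Pgd, Mgst1 and Sod1. Of the 9 genes, 8 were tested, and their log2 differences ran from -0.21 to 0.17, with 2 above 0 and 6 below. The remaining 25 tested genes ran from -0.25 to 0.26, with 12 above and 13 below. They are not a set without the letters, because no promoter was matched for Hmox1, Gclc, Gsr, Sod3, Prdx6 and Gsta4, which were not searched.

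The regulator and its partners came first. Nfe2l2, which encodes NRF2, had a normalised log2 signal of 1.30 and 1.52 on EXO-STD replicates 1 and 2, and of 1.05, 1.23 and 1.33 on EXO-HP replicates 1, 2 and 3. Only 1 EXO-HP array lay above the lower control, and the log2 difference was -0.21 ± 0.20 (SE), which did not pass the test. Keap1, the adaptor that marks NRF2 for destruction, read 1.66 and 2.02 in EXO-STD and 1.95, 2.01 and 2.07 in EXO-HP. EXO-STD replicate 1 was the low array, and the difference was 0.17 ± 0.21. Neither gene had an interval that reached 2-fold.

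Enzymes that NRF2 can induce were measured beside them. Nqo1, a quinone reductase often used as a readout of NRF2 activity, read 1.71 and 1.23 in EXO-STD and 1.30, 1.82 and 1.25 in EXO-HP. EXO-STD replicate 1 and EXO-HP replicate 2 were high and the other 3 arrays low, and the group means differed by -0.02 ± 0.28. Hmox1, the inducible heme oxygenase, had values of 0.64 and 0.04 in EXO-STD and of 0.26, 0.62 and 0.27 in EXO-HP, a difference of 0.05 ± 0.27. The same arrays were high as for Nqo1. Its constitutive relative Hmox2 varied less, with 1.78 and 1.70 in EXO-STD and 1.63, 1.57 and 1.73 in EXO-HP, a difference of -0.10 ± 0.19. A second, dimmer Hmox2 probe gave 0.17 ± 0.21, so the 2 probes lay on either side of 0. Srxn1, sulfiredoxin, which restores over-oxidised peroxiredoxins, read 2.19 and 2.10 in EXO-STD and 2.17, 2.51 and 2.27 in EXO-HP. EXO-HP replicate 2 was the highest array, and the difference was 0.17 ± 0.20. Of the 6 genes in this group, 3 lay above 0 and 3 below, and none passed the test.

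No gene of glutathione synthesis and reduction passed the test. Gclc, the catalytic subunit of the enzyme that sets the rate of glutathione synthesis, read 1.02 and 1.26 in EXO-STD and 1.05, 1.05 and 1.32 in EXO-HP, a difference of -0.003 ± 0.21. Its interval reached 1.44-fold at most. Gclm, the modifier subunit of the same enzyme, read -0.49 and -0.77 in EXO-STD and -0.39, -0.68 and -0.79 in EXO-HP, with a difference of 0.01 ± 0.23. Gss, glutathione synthetase, and Gsr, the reductase that regenerates glutathione with NADPH, differed by 0.06 ± 0.24 and -0.04 ± 0.25. All 4 genes stayed within 2-fold over their intervals, and their range over the 5 arrays was between 0.30 and 0.50.

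Glutathione peroxidases varied more between arrays of 1 group than between groups. Gpx1, the abundant cytosolic form, read 2.96 and 1.87 in EXO-STD and 2.26, 2.90 and 1.90 in EXO-HP. The control arrays were thus 1.09 apart on the log2 scale, whereas the group means differed by -0.07 ± 0.44. Gpx2 (a form best known from the gut epithelium) and Gpx4 (which reduces lipid peroxides in membranes) had the same array pattern, with gaps of 1.02 and 0.94 between the controls and group differences of 0.09 ± 0.40 and -0.07 ± 0.42. Gpx3, the secreted form, was well above background on 0 of 5 arrays and Gpx7, a form of the endoplasmic reticulum, on 1 (EXO-HP replicate 2), so neither was tested. A reading not well above background does not show that a transcript is absent.

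Catalase showed another order of arrays than the peroxidases. Its brighter probe read -0.19 and -0.22 in EXO-STD and 0.55, -0.33 and -0.43 in EXO-HP. EXO-HP replicate 1 alone was high, the other EXO-HP arrays lay below both controls, and the difference was 0.14 ± 0.35. With the slide as a block, which leaves EXO-HP replicate 1 alone against both controls of slide 1 and takes the spread from the other arrays, it was 0.76 ± 0.27 (limma adjusted p = 0.9999). That value restates the 1 high array.

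The superoxide dismutases, a cytosolic, a mitochondrial and a secreted form, followed the peroxidases in part. Sod1, the cytosolic enzyme, read 6.25 and 5.62 in EXO-STD and 5.74, 6.24 and 5.81 in EXO-HP, a difference of -0.003 ± 0.29. Sod2, the mitochondrial enzyme, read 3.95 and 3.42 in EXO-STD and 3.35, 3.92 and 3.38 in EXO-HP, a difference of -0.13 ± 0.29. In both, EXO-STD replicate 1 and EXO-HP replicate 2 were the high arrays. Sod3, the extracellular form, showed another order, with -1.98 and -2.12 in EXO-STD and -2.29, -1.89 and -1.61 in EXO-HP, and a difference of 0.12 ± 0.26.

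All 6 peroxiredoxins shared the array pattern. EXO-STD replicate 1 and EXO-HP replicate 2 were the 2 highest arrays for each of Prdx1 to Prdx6, and the median of the family relative to the EXO-STD mean was 0.38 and -0.38 in EXO-STD and -0.32, 0.54 and -0.25 in EXO-HP. The controls were 0.60 (Prdx3, the mitochondrial form) to 1.06 (Prdx2, a cytosolic form) apart. Group differences were smaller: -0.13 ± 0.42 for Prdx1, -0.06 ± 0.43 for Prdx2, -0.004 ± 0.34 for Prdx3, 0.09 ± 0.43 for Prdx4 of the endoplasmic reticulum, 0.13 ± 0.40 for Prdx5 and -0.10 ± 0.32 for Prdx6. None passed the test, and 4 of the 6 intervals reached past 2-fold, so for these genes the arrays cannot separate no difference from a 2-fold one.

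**Figure D2:**
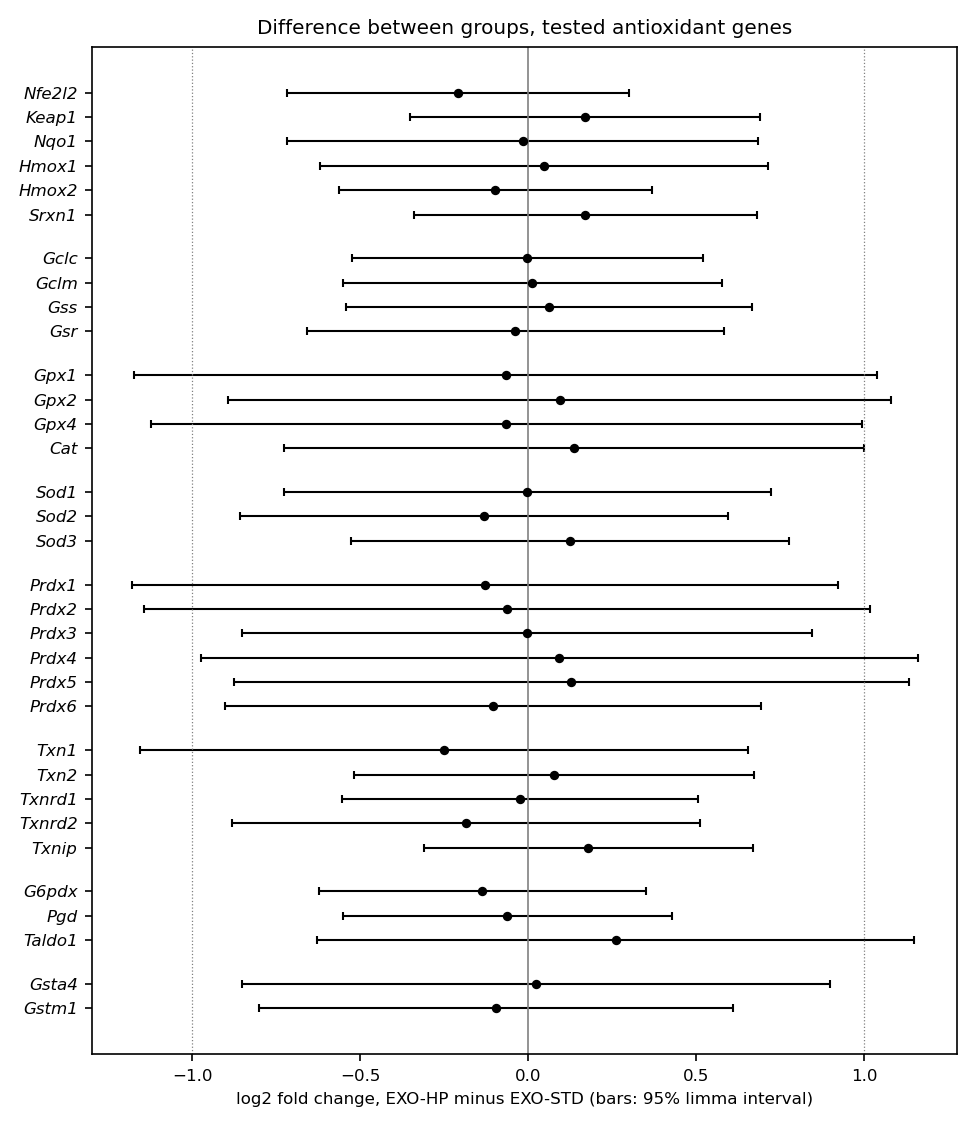
Log2 difference, EXO-HP minus EXO-STD (x axis), of the 33 tested antioxidant genes (y axis), with the 95% interval from limma (n = 3 and 2 arrays). Each of the 33 intervals includes 0, and 24 of 33 stay within 2-fold in either direction.

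In the thioredoxin system the largest shift below 0 was that of Txn1, the cytosolic thioredoxin, with 4.03 and 3.30 in EXO-STD and 3.20, 3.93 and 3.12 in EXO-HP. EXO-HP replicates 1 and 3 lay below both controls and replicate 2 between them, and the difference was -0.25 ± 0.36. Txnrd1, the cytosolic reductase of thioredoxin, read 3.27 and 3.35 in EXO-STD and 3.05, 3.40 and 3.41 in EXO-HP, a difference of -0.02 ± 0.21. Its mitochondrial counterpart Txnrd2 read 3.05 and 2.55 in EXO-STD and 2.33, 2.58 and 2.93 in EXO-HP, a difference of -0.19 ± 0.28. Mitochondrial thioredoxin, Txn2, differed by 0.08 ± 0.24. Txnip, which binds and inhibits thioredoxin and is known as a glucose-responsive gene of beta cells, read -1.42 and -1.21 in EXO-STD and -1.16, -1.03 and -1.21 in EXO-HP. All 3 EXO-HP arrays lay above EXO-STD replicate 1 and near or above EXO-STD replicate 2, and the difference was 0.18 ± 0.20. Its second probe gave 0.28. None of the 5 genes passed the test.

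Genes of NADPH supply did not pass it either. G6pdx, glucose-6-phosphate dehydrogenase, the entry enzyme of the pentose phosphate pathway, read 1.63 and 1.39 in EXO-STD and 1.37, 1.45 and 1.30 in EXO-HP, a difference of -0.14 ± 0.20. Pgd, the next NADPH-forming enzyme, differed by -0.06 ± 0.20. Taldo1, transaldolase, read 4.91 and 4.34 in EXO-STD and 4.38, 5.35 and 4.93 in EXO-HP. EXO-HP replicate 2 was the highest array and EXO-HP replicate 1 lay near the lower control, with a difference of 0.26 ± 0.36. With the slide as a block Taldo1 was at -0.245 ± 0.39, on the other side of 0.

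Of the glutathione transferases, which attach glutathione to reactive compounds, Gsta4 and Gstm1 were tested and differed by 0.02 ± 0.35 and -0.10 ± 0.28. Mgst1, a membrane-bound form, was well above background on 0 of 5 arrays with either of its probes. In both tested genes EXO-STD replicate 1 and EXO-HP replicate 2 were the highest arrays. The value of Gstm1 rests on a probe that the array design places on another chromosome than its second probe, which gave -0.04.

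The pattern of arrays was larger than the comparison. The gap between the EXO-STD arrays exceeded the difference between groups in 30 of the 33 genes (90.9%), against 67.1% of all genes. The range of the EXO-HP arrays exceeded that difference in 31 of the 33, and in 22066 of all 25844 genes tested. EXO-STD replicate 1 was above EXO-STD replicate 2 in 28 of 33 genes (84.8%), against 50.3% of all genes, 68.6% of the 4062 genes with a mean normalised signal above 2 and 72 of the 96 tested wider redox genes described last, the exceptions being Nfe2l2, Keap1, Gclc, Txnrd1 and Txnip. It was above by more than 0.5 in 15 genes (45.5%), against 18.0% of all genes and 33.5% of those bright genes. These 15 were Hmox1, Gpx1, Gpx2, Gpx4, Sod1, Sod2, all 6 peroxiredoxins, Txn1, Txnrd2 and Taldo1. EXO-STD replicate 1 and EXO-HP replicate 2 were the 2 highest arrays in 19 of the 33 genes (57.6%), against 22.9% of all genes and 50.1% of those bright genes. The share in the set lay nearer to that of the bright genes than to that of all genes. Not all members are bright genes: Nfe2l2, Nqo1 and Gclm, among others, lay below 2 on all 5 arrays. The part of signal strength in the pattern was not tested. EXO-STD replicate 1 lay on slide 1 and EXO-HP replicate 2 on slide 2.

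**Figure D3:**
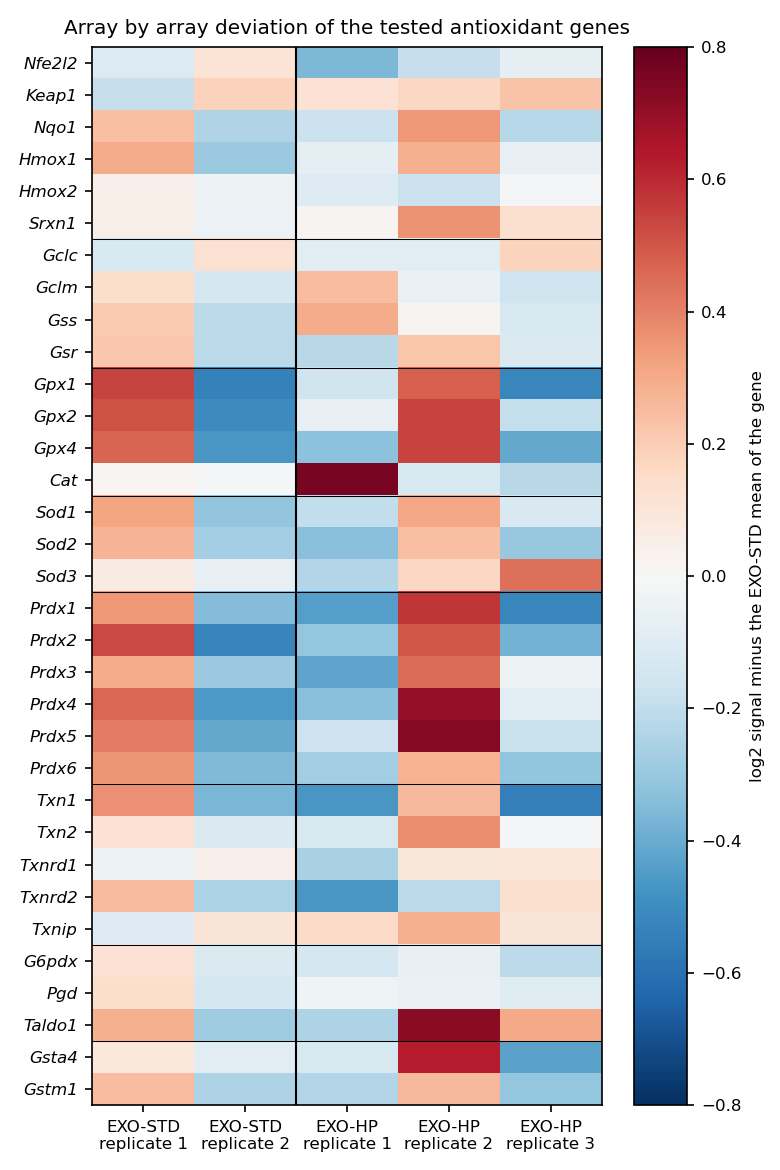
Heat map of the normalised log2 signal minus the EXO-STD mean of the gene (colour, red above and blue below 0) for the 33 tested antioxidant genes (y axis, lines between roles) on each of the 5 arrays (x axis, a line between EXO-STD and EXO-HP). EXO-STD replicate 1 and EXO-HP replicate 2 are red for all 6 peroxiredoxins and for Gpx1, Gpx2 and Gpx4, while Cat stands out on EXO-HP replicate 1.

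Relative to the EXO-STD mean, the median of the 33 genes was 0.24 and -0.24 on the EXO-STD arrays and -0.17, 0.28 and -0.12 on EXO-HP replicates 1, 2 and 3. All genes lay at 0.002, -0.002, 0.04, 0.19 and 0.07 on the same arrays. The roles differed in how far the arrays spread. Genes of glutathione synthesis and reduction spanned between 0.30 and 0.50 over the 5 arrays, the regulator group between 0.22 and 0.60, the peroxiredoxins between 0.71 and 1.16, and the tested glutathione peroxidases with catalase between 0.98 and 1.09. In 11 of the 33 genes, among them Nfe2l2, Keap1, Gclc, Gclm, Txnrd1 and Txnip, the 5 arrays lay within 0.5 of each other.

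Several probes were available for 9 of the genes. Parts of the probes of 3 genes are shown: Cat, where 1 of 2 probes was mostly not above background, Prdx6, where 1 of 4 differed from the rest, and Gstm1, whose probes are placed on different chromosomes. Each is a 30-base stretch of a 60-base probe, 5′ to 3′, and capitals mark a run of CA repeats in the brighter Cat probe and the letters AATAAA, the common polyadenylation signal, in the brighter Prdx6 and Gstm1 probes.
Cat, brighter probe: cacatacCACACACACACACACAtgcaata
Cat, dimmer probe: gacaatgtcactcaggtgcggacattctac
Prdx6, brightest probe: tgaggttcaacaAATAAAatcctgatcaga
Prdx6, dimmest probe: atggttaggtagtctggcctcattagtgta
Gstm1, brighter probe: tgtctcatctacAATAAAgtctgaaacaca
Gstm1, dimmer probe: ttttcaaagatggcccactggagtaacaag

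By the array design on mm9, the brighter Cat probe lies at chr2:103294487-103294546 on the minus strand, and the dimmer one spans chr2:103297086-103300428 on the same strand. The dimmer probe was well above background on 1 of 5 arrays, read -7.88 and -7.06 in EXO-STD and -8.63, -4.88 and -7.99 in EXO-HP, and was not tested. It therefore gives no second measurement of the order of arrays. A run of CA or TG repeats was found in 1 of the 36 probes that stand for the set (2.78%), the brighter Cat probe. It was found in 163 of all 39429 probes (0.413%). All the values of catalase above rest on the brighter Cat probe, and whether it also binds other transcripts was not tested.

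For Prdx6, 3 probes gave differences between -0.10 and -0.01, and the dimmest gave 1.05 ± 0.46 (limma adjusted p = 0.9156), with all 3 EXO-HP arrays above both controls. It read -7.22 and -6.21 in EXO-STD and -6.20, -5.03 and -5.77 in EXO-HP, and was well above background on 0 of 2 EXO-STD and 2 of 3 EXO-HP arrays. EXO-HP replicate 1, on slide 1 with the controls, read almost as EXO-STD replicate 2 did. The higher readings were those of EXO-HP replicates 2 and 3 on slide 2, where group and slide cannot be told apart. The 95% limma interval of its log2 difference, -0.10 to 2.21, included 0. As a bound without allowance for spread, the EXO-HP mean read at least 1.56-fold higher with that probe. It lies at chr1:163170713-163170772 on the minus strand, 425 bases downstream of the brightest probe at chr1:163171138-163171197, which holds AATAAA. With the mean of its 4 probes Prdx6 was at 0.22 and not at -0.10.

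The brighter Gstm1 probe is placed at chr5:117082490-117082549 by the array design and the dimmer one at chr3:107815595-107815654, both on the minus strand. Their differences were -0.10 and -0.04. Which of them reads the Gstm1 transcript was not tested. In Gsr (-0.04 and -0.27), Hmox1 (0.05 and 0.40) and Prdx1 (-0.13 and -0.06) the probes lay on the same side of 0. AATAAA was present in 7 of the 36 probes of the set (19.4%) and in 12.6% of all probes.

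**Figure D4:**
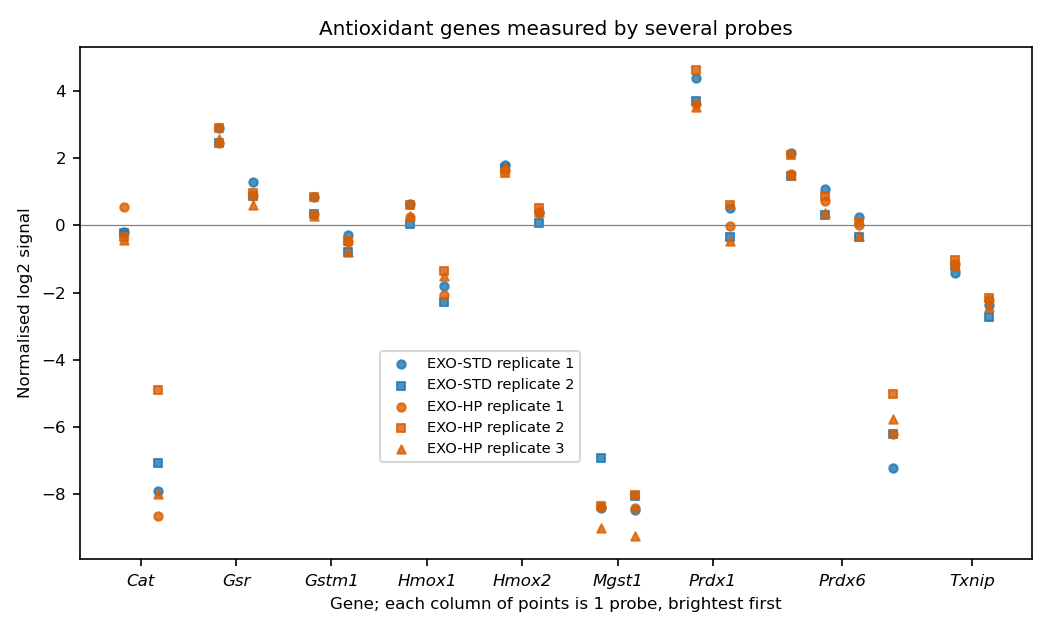
Normalised log2 signal (y axis) of each probe of the 9 genes with several probes (x axis, brightest probe first), with 1 point per array for EXO-STD (n = 2) and EXO-HP (n = 3). Signals of different probes are not comparable with each other. The second Cat probe was well above background on 1 of 5 arrays, the fourth Prdx6 probe on 2 and both Mgst1 probes on 0.

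A wider list of 100 redox genes, covering further glutathione transferases, glutaredoxins, NRF2 partners, NADPH enzymes, ferritins and aldehyde-detoxifying enzymes, was read from the same fit. Of the 96 tested, none passed the test and none had an unadjusted p under 0.05 in limma, against 5.84% of all genes. The difference was above 0 in 45 genes and below 0 in 51, with a median of -0.008. The groups did not overlap in 7 of the 96, with EXO-HP higher in 5 and lower in 2, whereas they did not overlap in 17.9% of all genes (15.0% higher and 2.82% lower). Among the 5, Msrb3 was tested only because of its EXO-HP arrays. These comparisons were not matched for signal: 90 of the 96 were well above background on all 5 arrays, against 21740 of the 25844 genes tested.

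Those with the smallest unadjusted p above 0 were Msrb3, Mgst2, Mafg and Aldh3a2. Msrb3, a methionine sulfoxide reductase, read -8.47 and -8.13 in EXO-STD and -8.00, -5.43 and -5.21 in EXO-HP, and Mgst2, a microsomal glutathione transferase, read -8.50 and -6.09 in EXO-STD and -6.23, -5.02 and -3.47 in EXO-HP. Neither was well above background in EXO-STD, and both EXO-HP arrays that measured them lay on slide 2, so only a bound can be given. In this processing the EXO-HP mean of Mgst2 read at least 2.59-fold higher. That bound was 1.57-fold without EXO-HP replicate 3 and 4.10-fold without EXO-HP replicate 1. It makes no allowance for spread, and the 95% limma interval of the log2 difference, -0.14 to 4.93, included 0. The log2 difference of Mgst2 was 0.73 with normexp correction and 1.27 with the deposited values. The groups of Mgst2 overlapped, with EXO-HP replicate 1 below EXO-STD replicate 2, and on slide 2 group and slide cannot be told apart. For Msrb3 the bound was at least 1.06-fold. It was 1.98-fold without EXO-HP replicate 1, and there was none without EXO-HP replicate 2, EXO-HP replicate 3 or EXO-STD replicate 1. With the slide as a block the log2 differences were 1.065 for Mgst2 and 0.30 for Msrb3, with EXO-HP replicate 1, where neither was well above background, as the only EXO-HP array. Mafg, a small MAF protein that pairs with NRF2, read 2.67 and 3.23 in EXO-STD and 3.47, 3.38 and 3.74 in EXO-HP, a difference of 0.58 ± 0.26 (limma adjusted p = 0.9199). Without EXO-STD replicate 1 it was 0.30. Aldh3a2, a fatty aldehyde dehydrogenase, differed by 0.41 ± 0.19, with the 3 EXO-HP arrays above both controls.

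Below 0 the smallest p values belonged to Ptgr1, Ggt6, Slc6a9 and Ggct. Ptgr1, a reductase of prostaglandins and reactive alkenals, read -0.92 and -1.26 in EXO-STD and -1.53, -1.50 and -1.51 in EXO-HP. All 3 EXO-HP arrays lay below both controls, and the difference was -0.42 ± 0.20 (limma adjusted p = 0.9318). Ggt6, a relative of gamma-glutamyltransferase, was at -0.44 ± 0.33 and, with the slide as a block, at 0.05. Slc6a9, a glycine transporter, was at -0.26 ± 0.21 with the groups apart, and without EXO-STD replicate 1 at -0.07. Ggct, which splits gamma-glutamyl peptides, was at -0.23 ± 0.21.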

How the data were processed

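RNA of 5 MIN6 samples was labelled with Cy3 and hybridised to 1-colour Agilent arrays. Per the file headers, the authors' spot intensity values came from Feature Extraction 10.7.3.1. The submitters' processing notes list version 9.1 of that software and limma. The deposited value table holds log2 values with the same distribution on every array and served as an alternative. Log2 of the processed signal minus each array's 75th percentile was used, without outlier spots and control spots, so a value of 0 is the 75th percentile of an array. Probes were tested where 2 or more arrays of a group were well above background (31943 of 39429), with 7376 dim probes and 110 without a usable spot left out. The comparison used lmFit and eBayes of limma 3.58.1, run in R 4.3.3 (no covariate, Benjamini-Hochberg over all tested probes, threshold 0.05). On simulated arrays with the residual spread of each probe, the fit called 0 of 150 probes changed 2-fold. It called 39.3% of those changed 4-fold and 70.7% of those changed 16-fold. Errors are limma standard errors, with n = 2 and 3 arrays. Where no array of a group was well above background, a fold is a bound: the brighter group's mean against, per array, the higher of what the dim probe read and the lowest signal well above background. It holds for this processing only and makes no allowance for the spread between arrays.

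Values on every array are given for the 12 genes with the smallest unadjusted p and for 12 central genes, 19 in all. Values of the dimmer Cat and Prdx6 probes were added after their values were seen. The members and lists were chosen with earlier results of these data known. Positions of probes are those of the array design (mm9), and promoter sequences are from RefSeq (GRCm38.p6). The alternatives were other scalings and background corrections, other filters, slide, replicate number or array weights in the fit, the deposited table, the mean of a gene's probes and each array left out.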

Additional observations from a re-analysis of the deposited data

How the results depend on the processing

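No antioxidant gene and no wider redox gene was called under any alternative tried. Over all probes the count called was 0 under each of them except without EXO-STD replicate 1, where limma called 3 probes, none of an antioxidant gene, so the range over the arrays left out was 0 to 3. At an unadjusted p under 0.05 limma had 1788 probes in all. The median log2 difference of the 33 genes was -0.004, and with arrays left out it ran from -0.253 to 0.191. It was -0.18 with scaling to the median, where all probes had a median of -0.102 in place of 0.075, and -0.17 with the slide as a fixed block. Only Nfe2l2, Txnip and G6pdx kept their sign under every alternative, and the other 30 genes turned under at least 1. Of these 3, Txnip was at 0.003 with scaling to the median and G6pdx at -0.019 without EXO-STD replicate 1. Of the differences of Msrb3 and Mgst2, 0.36 and 0.73 remained with normexp correction. The 2 shared replicate numbers could not be shown to pair the samples (correlation of same-numbered deviations 0.025 and -0.056). With the number as a replicate block 0 probes were called and the median of the 33 genes was 0.088, with 22 above 0 and 11 below. No control shares the number of EXO-HP replicate 3, so these differences are the same as those with that array left out. The cause of these shifts was not tested.

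None of the values that changed sign had passed the test. With scaling to the median of each array, the sign turned for Keap1 (-0.006), Hmox1 (-0.13), Srxn1 (-0.006), Gclm (-0.16), Gss (-0.11), Gpx2 (-0.082), Cat (-0.039), Sod3 (-0.052), Prdx4 (-0.084), Prdx5 (-0.047), Txn2 (-0.099) and Gsta4 (-0.15). With quantile normalisation, the sign turned for Nqo1 (0.000), Gclc (0.003), Gclm (-0.015), Sod1 (0.036) and Gsta4 (-0.11). With normexp correction and quantile normalisation, the sign turned for Gclm (-0.057), Gss (-0.089), Gsr (0.021), Sod3 (-0.003), Prdx3 (0.011) and Gsta4 (-0.081). With outlier spots kept, the sign turned for Prdx3 (0.004). With the slide as a fixed block, the sign turned for Hmox1 (-0.078), Gpx2 (-0.068), Sod3 (-0.235), Prdx4 (-0.33), Prdx5 (-0.16), Txn2 (-0.13), Taldo1 (-0.245), Gsta4 (-0.13) and Ggt6 (0.049). With the slide as a random block, the sign turned for Nqo1 (0.005), Gclc (0.009), Gclm (-0.020), Sod1 (0.023), Prdx3 (0.053) and Txnrd1 (0.007). With the replicate block, the sign turned for Nqo1 (0.088), Gpx1 (0.16), Gpx4 (0.11), Sod1 (0.057), Sod3 (-0.034), Prdx1 (0.066), Prdx2 (0.094), Prdx3 (0.015), Prdx6 (0.000) and Gstm1 (0.013). With the deposited value table, the sign turned for Gclm (-0.060), Gss (-0.095), Gsr (0.021), Sod3 (-0.005), Prdx3 (0.011) and Gsta4 (-0.097). With array weights, the sign turned for Hmox1 (-0.031), Gclc (0.10), Gclm (-0.077), Gss (-0.038), Gpx2 (-0.094), Cat (-0.044), Prdx4 (-0.051), Prdx5 (-0.082), Txnrd1 (0.033) and Gsta4 (-0.265). With the mean of all probes of a gene, the sign turned for Hmox2 (0.037) and Prdx6 (0.22).

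With each array left out in turn, the sign turned at least once for these genes, given with their lowest and highest value: Keap1 (-0.014 to 0.355), Nqo1 (-0.26 to 0.22), Gsr (-0.25 to 0.18), Gpx1 (-0.61 to 0.48), Gpx4 (-0.53 to 0.40), Sod1 (-0.32 to 0.32) and Sod2 (-0.40 to 0.14). The same held for Prdx1 (-0.48 to 0.21), Prdx2 (-0.59 to 0.47), Prdx3 (-0.30 to 0.30), Prdx6 (-0.46 to 0.25), Txn1 (-0.62 to 0.115), Txnrd2 (-0.435 to 0.065) and Pgd (-0.20 to 0.079). It held also for Gstm1 (-0.345 to 0.15), Hmox1 (-0.25 to 0.35), Gclc (-0.12 to 0.12), Gclm (-0.13 to 0.15), Gss (-0.14 to 0.27), Gpx2 (-0.42 to 0.61) and Prdx4 (-0.37 to 0.55), and for Prdx5 (-0.28 to 0.54), Txn2 (-0.070 to 0.19), Txnrd1 (-0.085 to 0.093), Taldo1 (-0.024 to 0.545), Gsta4 (-0.28 to 0.25), Cat (-0.17 to 0.32) and Sod3 (-0.034 to 0.30).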
